A study of Drosophila melanogaster with 2 samples.

Results

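The genes described here are 10 core genes of Drosophila insulin and TOR signalling: InR, chico, Pi3K21B, Pi3K92E, Akt, foxo, S6k, Thor, Tor (named mTor in the annotation) and REPTOR. They were chosen by symbol, as 10 of the 13945 protein-coding genes annotated on the 6 chromosome arms used. The rule uses no measured value, but the set was proposed with earlier results of these data known, so the counts below describe these genes and are not independent evidence about the pathway. For each gene, every region whose summit lay between 2 kb upstream of the gene and its end was taken from the peak lists of a ChIP-seq experiment on Mnt, a basic helix-loop-helix leucine zipper repressor that pairs with Max at the E-box CACGTG. The experiment had 1 group, whole adult female flies (Drosophila melanogaster) of the transgenic line Mnt-GFP, which carries Mnt fused to GFP at its C terminus, with 2 biological replicates of that line and an immunoprecipitation by an antibody against GFP. No source used here gives the promoter of the fusion. The flies' age is given as unknown. Whole flies mix all tissues, so a peak does not say in which cells the protein was bound. The lists hold no expression values, and the sex, stage and tissue in the labels were not checked. With 1 group, no test between conditions was possible, and the results are values, counts and exact intervals.

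In flies, insulin-like peptides activate the receptor InR, whose substrate Chico recruits phosphatidylinositol 3-kinase; the lipid this kinase makes brings the kinase Akt to the membrane. Akt keeps the transcription factor Foxo out of the nucleus and relieves the brake on the kinase Tor. Tor complex 1 activates S6k, restrains the translational repressor encoded by Thor (4E-BP), and keeps the transcription factor REPTOR in the cytoplasm. Foxo and REPTOR switch on genes of fasting and growth arrest when the pathway is quiet, in the fat body among other tissues. Myc, the activator that shares the partner Max with Mnt, drives growth.

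The sequences below are from the reference at the intronic summits described here in most detail, read in the direction of each gene on the dm6 build. Capitals mark the canonical E-box CACGTG, the variant CACGCG, the variant forms CATGTG as well as CATGCG, and also the Foxo recognition core GTAAACA, each on either strand. The InR and foxo introns hold the only CACGTG within 100 bp of a summit at these genes, and the Akt and S6k introns hold the strongest intronic summits of those genes. Each stretch has the summit at its middle. They lie at chr3R:21613441-21613561 (minus strand), chr3R:14067744-14067864 (plus strand), chr3R:16099860-16099980 (plus strand) and chr3L:5807459-5807579 (minus strand).
InR intron: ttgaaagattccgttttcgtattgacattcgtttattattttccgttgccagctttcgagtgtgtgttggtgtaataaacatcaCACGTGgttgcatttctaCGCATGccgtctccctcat
foxo intron: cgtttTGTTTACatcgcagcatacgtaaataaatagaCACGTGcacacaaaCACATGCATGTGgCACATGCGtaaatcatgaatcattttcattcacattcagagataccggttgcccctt
Akt intron: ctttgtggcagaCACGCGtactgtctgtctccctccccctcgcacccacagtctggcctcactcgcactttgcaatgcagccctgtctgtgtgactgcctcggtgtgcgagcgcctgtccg
S6k intron: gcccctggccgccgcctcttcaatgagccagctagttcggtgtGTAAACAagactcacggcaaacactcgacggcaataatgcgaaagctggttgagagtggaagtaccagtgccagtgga

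All 10 genes had a Mnt-eGFP summit of the reproducible ("optimal") list between 2 kb upstream and the gene end, where 45.0% of protein-coding genes had one. For 7 of the 10, the strongest summit was among the 500 strongest of the 7451 optimal peaks, a rank that 5.70% of protein-coding genes reached. Signal here is the deposited value of the peak caller for a region, without a stated normalization. The strongest summits were at S6k (signal 1094, rank 58), foxo (912, rank 111), Akt (604, rank 280), Pi3K21B (546, rank 337), InR (529, rank 356), REPTOR (527, rank 362) and chico (464, rank 466). Thor followed at 320 (rank 963), and Tor and Pi3K92E were lowest at 166 (rank 2930) and 161.5 (rank 3051), still above the median optimal signal of 141. The 10 windows held 45 optimal summits over 173 kb, or 0.260 per kb, against 0.0916 per kb over the windows of all protein-coding genes. The median signal of the 45 was 170.

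**Figure D1:**
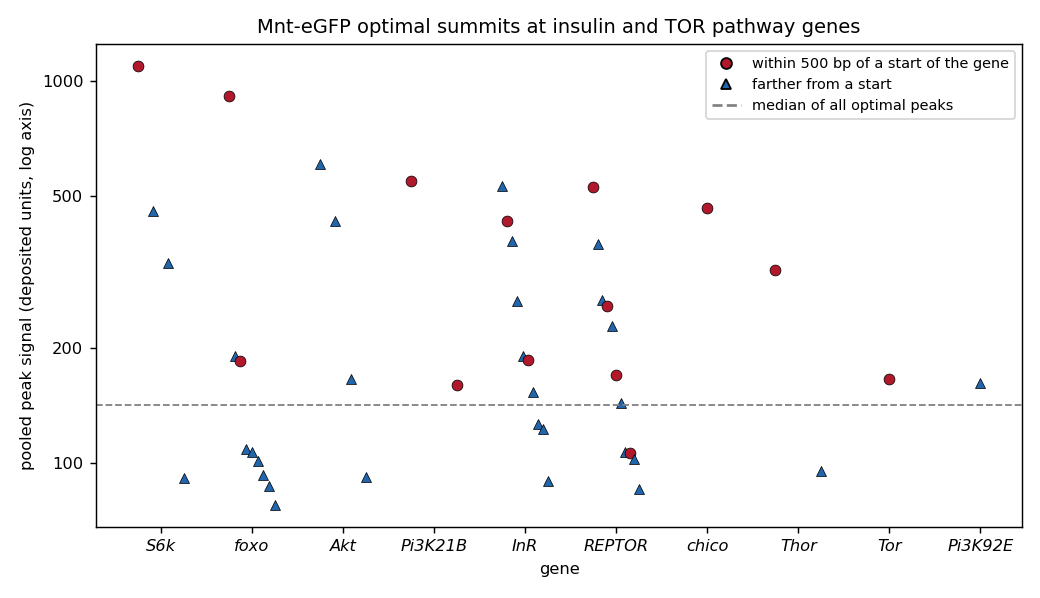
Pooled signal (deposited units, log axis) of each of the 45 optimal summits, by gene, ordered by the strongest summit. Circles lie within 500 bp of a start of the gene, triangles lie farther away, and the dashed line is the median of all optimal peaks (141); S6k and foxo are led by a summit at a start, Akt and InR by an intronic one.

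Summits lay both at starts and deep in introns. Of the 45, 14 were within 500 bp of an annotated transcription start site (TSS) of the gene, with a median signal of 288, and 31 were farther away, with a median of 143. Of all 7451 optimal summits, 5203 were within 500 bp of a TSS of any protein-coding gene, with a median of 150. The other 2248 lay beyond, with a median of 122. Most summits of the whole list were thus near a TSS, whereas most of the 45 were not near one of their own gene. Of the 31 distant summits, 25 were intronic. By position in the gene itself, 27 summits fell in introns, 9 in 5′ UTRs, 1 in a coding exon and 8 outside the gene. No such shares of the whole list are given here, so these counts by position stand without a comparison. By this distance 8 of the 10 genes were bound at a TSS, against 38.1% of protein-coding genes, and the exceptions were Akt and Pi3K92E. The genes have 20 distinct TSSs, and 13 of these had a summit within 500 bp, where 36.7% of the distinct TSSs of all protein-coding genes had one. Alternative starts of 1 gene can share a summit.

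Both replicates listed a region overlapping by 1 bp or more for every one of the 45 summits, as they did for 97.6% of all optimal peaks. The 45 summits lie in 44 regions with distinct start and end. Some of these overlap and match the same replicate region, so they are not all separate peaks. Each single-replicate list holds 30000 regions, weak background included, so a listed region is not by itself a peak. Both lists also had a summit within 100 bp of the optimal summit at 43 of the 45, against 87.6% of all. Among the 7451 strongest regions of each replicate the count was 31 of 45, against 64.8%, so the share at these genes was close to that of the whole list. Signals were on a higher scale in replicate 1. Over the 43 matched summits the ratio of replicate 1 to replicate 2 had a median of 1.94, with a range from 0.463 to 8.09, and over all matched optimal summits the median was 2.17. Ranks within each list are therefore given beside the signals. No region had the same start, end and summit in both lists.

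**Figure D2:**
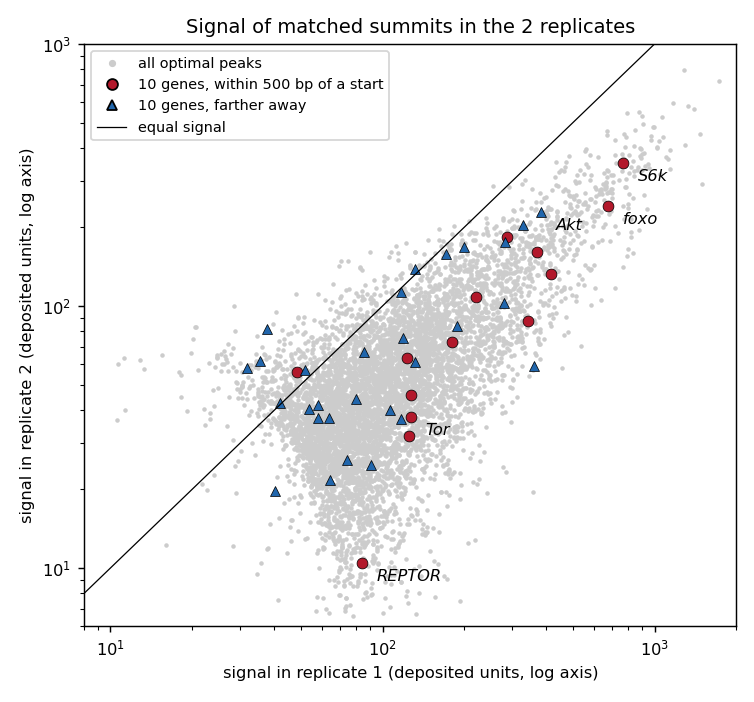
Signal in replicate 2 (y axis) against signal in replicate 1 (x axis), both in deposited units on log axes, for optimal summits matched within 100 bp, with all optimal peaks in grey, summits of the 10 genes within 500 bp of a start as red circles and those farther away as blue triangles. S6k is the highest of the 10 genes in both replicates (767 and 350), most coloured points lie below the line of equal signal, that is, higher in replicate 1, and the lowest one is the REPTOR summit with a ratio of 8.09.

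InR, the insulin receptor gene, spans 49.1 kb of chromosome 3R (21570248 to 21619321, minus strand) and carried 10 optimal summits. Its strongest summit did not lie at a start. It was in an intron 5535 bp downstream of the start of transcript RA, with a pooled signal of 529, a signal of 329 in replicate 1 (rank 466) and 204.5 in replicate 2 (rank 235). CACGTG lies there with its middle 26 bp downstream of the summit, in the stretch printed above. The start of the non-coding gene lncRNA:CR44034 lies 2239 bp from this summit, nearer than any InR start. The summit at the first start, 43 bp upstream of transcript RB, had a signal of 430, with 344 in replicate 1 (rank 436) and 87.7 in replicate 2 (rank 1333). The rank of this start summit thus differed more between the replicates than that of the intronic one. A CACGCG, printed further down, lies 54 bp downstream of the start summit, within the 5′ UTR.

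InR has 4 annotated starts, and they were not bound alike. RA and RB share the start summit just described, which lies 328 bp upstream of RA. The start of RD, far inside the gene, had a summit 98 bp downstream in the 5′ UTR with a signal of 185 (123 in replicate 1 and 63.5 in replicate 2). A stronger intronic summit lay 671 bp upstream of RD, at 381 (280.5 and 103, ranks 648 and 979). The start of RC had no optimal summit within 500 bp; its nearest pooled region, 252 bp downstream, had a signal of 27.5 (rank 17332). Neighbouring intronic summits at 13.6 and 13.8 kb from the first start had signals of 122 and 265. Replicate 2 gave the second of these 138 (rank 573) and replicate 1 gave it 132 (rank 2425), so that its rank was higher in replicate 2. Between 13.8 and 28.5 kb no optimal summit was found, although 4 of the 9 CACGTG sites of the InR window lie in that stretch. The weakest of the 10, in a coding exon, had a signal of 89.4.

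chico encodes the insulin receptor substrate, the adaptor between the receptor and phosphatidylinositol 3-kinase. Its single optimal summit lay in the 5′ UTR, 138 bp downstream of the only start (chromosome 2L, summit at 10246940). The signal was 464, with 286 in replicate 1 (rank 617) and 184 in replicate 2 (rank 307). It was the only pooled region in the chico window, which holds no CACGTG. The Foxo core GTAAACA lies 7 bp upstream of the summit.

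The lipid kinase has a regulatory subunit encoded by Pi3K21B and a catalytic subunit encoded by Pi3K92E, and their peaks were unlike. At Pi3K21B the summit was 4 bp downstream of the first start, in the 5′ UTR (chromosome 2L, 297884), with a signal of 546 (415 in replicate 1, rank 295, and 132 in replicate 2, rank 628). An overlapping region with its summit 203 bp downstream reached 159. The internal start, of transcripts RC and RD, had only a region below the optimal list, 219 bp upstream with a signal of 62.2 (rank 9101). No panel motif was found within 100 bp of either optimal summit of Pi3K21B. At Pi3K92E the only optimal summit lay in the 5′ UTR 545 bp downstream of the start, with a signal of 161.5. Replicate 1 gave that summit 124 (rank 2645). Replicate 2 had no summit within 100 bp, and its overlapping region, centred 146 bp farther upstream, had a signal of 7.84 (rank 24069). The Pi3K92E peak therefore rests on replicate 1. Replicate 2 placed its strongest region of this window 1271 bp upstream of the start instead, at 32.9 (rank 5848). The assignment of that region to Pi3K92E rests on the window alone. The start of another gene nearest to the optimal summit is that of Lrrk, 1293 bp away.

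Akt, the kinase that acts on Foxo, had the third strongest summit of the 10 genes but none within 500 bp of a start. The main summit was intronic, 692 bp downstream of the start used by transcripts RA, RB, RC and RE (chromosome 3R, 16099920), and its signal was 604. Replicate 1 gave it 384 (rank 350) and replicate 2 gave it 228 (rank 185), so both ranked it among their strongest regions. A lower summit in an overlapping region, at 165.5, lay 638 bp upstream of the RD start. A CACGCG lies 46 bp upstream of the main summit, in the Akt stretch printed above. A separate peak lay 1387 bp upstream of Akt, at 430. It falls in an intron of the neighbouring gene Mhcl, 920 bp from a Mhcl start, so its assignment to Akt rests on the window alone. Its signal was 361 in replicate 1 (rank 399) and 58.8 in replicate 2 (rank 2724), a ratio of 6.14. No pooled region had its summit within 500 bp of either Akt start.

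foxo, the transcription factor that Akt holds in check, spans 31.0 kb of chromosome 3R (14056945 to 14087978) and carried 9 optimal summits. The strongest lay in the 5′ UTR 27 bp downstream of the start shared by transcripts RB, RC, RF and RH, with a signal of 912. It was 674.5 in replicate 1 (rank 96) and 241.5 in replicate 2 (rank 160). The summit of an overlapping region, 228 bp downstream of the start, had 185, and a separate peak 886 bp upstream had 190. The nearby start of RG had no optimal summit within 500 bp; the pooled region 95 bp upstream of it had a signal of 34.4 (rank 14771). In replicate 2 a region 85 bp upstream of RG reached 44.8 (rank 4037).

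The other 6 foxo summits were intronic and weak, between 77.5 and 109, all below the median optimal signal. They lay from 2.12 to 14.1 kb downstream of the first start. The summit of 109, 13.4 kb downstream, had no replicate 2 summit within 100 bp. The replicate 2 region overlapping it had its summit 166 bp away and a signal of 21.7 (rank 8933). The one with CACGTG, 10.9 kb downstream, had a signal of 107, with 51.8 in replicate 1 (rank 7767) and 57.0 in replicate 2 (rank 2875). In the printed stretch CACGTG sits 20 bp upstream of that summit, a GTAAACA 52 bp upstream, and several CATGTG and CATGCG follow. This summit was thus a weak peak with a canonical site, whereas the strong foxo start summit had none of the 9 panel motifs within 100 bp. The last 16.9 kb of the gene, which hold most coding exons, had no optimal summit.

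**Figure D3:**
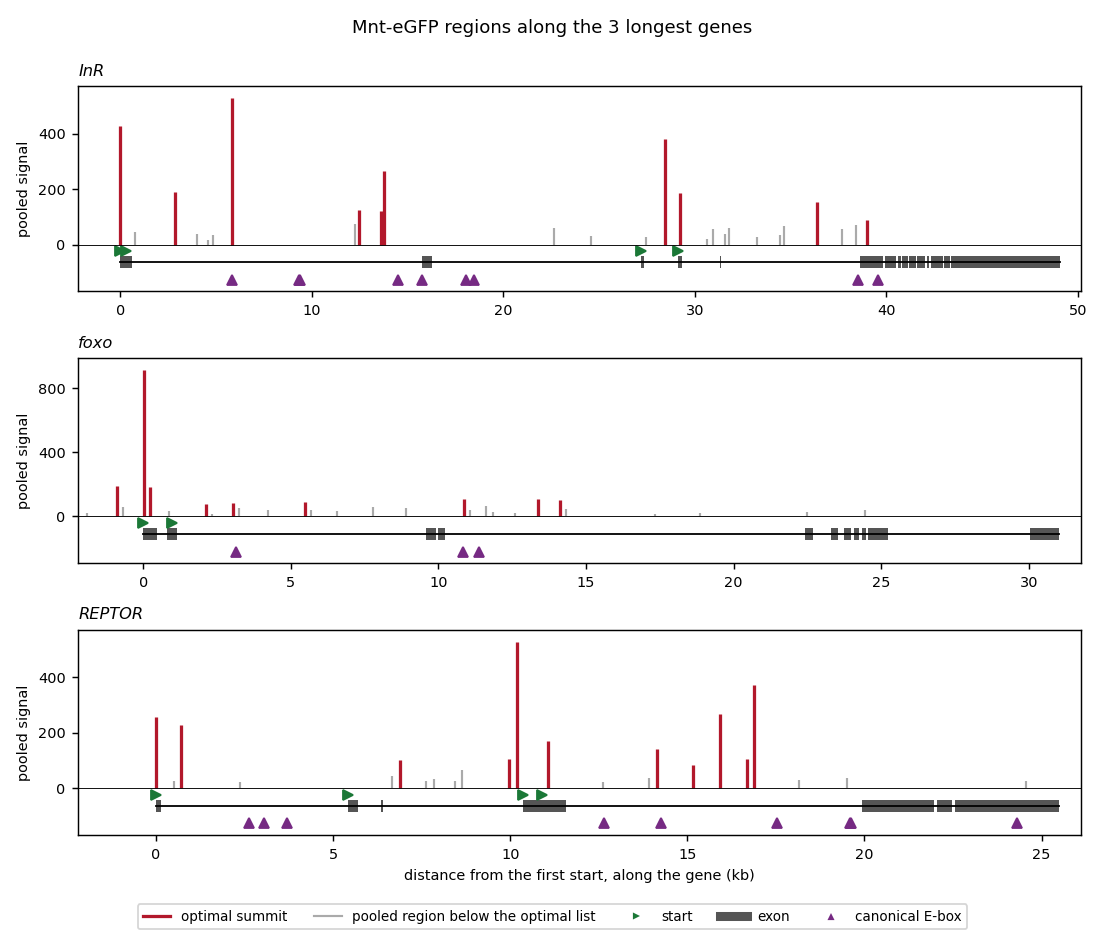
Pooled signal (y axis, deposited units) against distance from the first start (x axis, kb) for InR, foxo and REPTOR, with optimal summits in red, weaker pooled regions in grey, exons as boxes, starts as green arrowheads and CACGTG sites as purple triangles. The strongest foxo summit (912) is at the first start, while those of InR (529) and REPTOR (527) lie 5.82 and 10.2 kb into the gene, and most CACGTG sites have no red line above them.

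S6k, the kinase of ribosomal protein S6 and a target of Tor complex 1, had the strongest summit of the 10 genes. It lay in the 5′ UTR 12 bp downstream of the start (chromosome 3L, 5810919), with a signal of 1094, 767 in replicate 1 (rank 70) and 350 in replicate 2 (rank 52). The divergent gene kri starts 54 bp from this summit, so the peak belongs to a shared promoter. The variant E-box CACGCG lies 76 bp upstream of the summit. The other S6k summits were intronic, and the nearest start of another gene was 948 bp or more away. The one 3412 bp downstream had a signal of 455 (282 and 175, ranks 642 and 343), and GTAAACA occurs 14 bp and again 97 bp upstream of it. The one 1105 bp downstream had 333 (172 and 159, ranks 1538 and 437), with a weaker summit at 91.3 beside it. All 4 CACGTG sites of the S6k window lie beyond 100 bp of these summits, the closest 138 bp from the summit of 455.

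Thor encodes 4E-BP, which binds eIF4E and represses cap-dependent translation, and is a well known Foxo target. Its main summit was 3 bp upstream of the RA start (chromosome 2L, 3478431), and the RB start is 91 bp from it. The signal was 320, with 220 in replicate 1 (rank 997) and 108 in replicate 2 (rank 891). In replicate 2 a second region, with its summit 237 bp upstream of RA, had a slightly higher signal of 120 (rank 734). The other optimal summit of the window, at 94.9 and 1922 bp upstream, lies in an exon of lncRNA:CR43928, 169 bp from its start.

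Tor, the kinase of both Tor complexes, had 1 optimal summit, 342 bp upstream of its start (chromosome 2L, 13004138). It was only 31 bp from the start of the divergent gene Vha68-1, which encodes a subunit of the vacuolar ATPase. The signal was 166, with 127 in replicate 1 (rank 2548) and 37.7 in replicate 2 (rank 4980). In the pooled list the region nearest to the start itself, 141 bp upstream, had a signal of 33.1 (rank 15183).

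**Figure D4:**
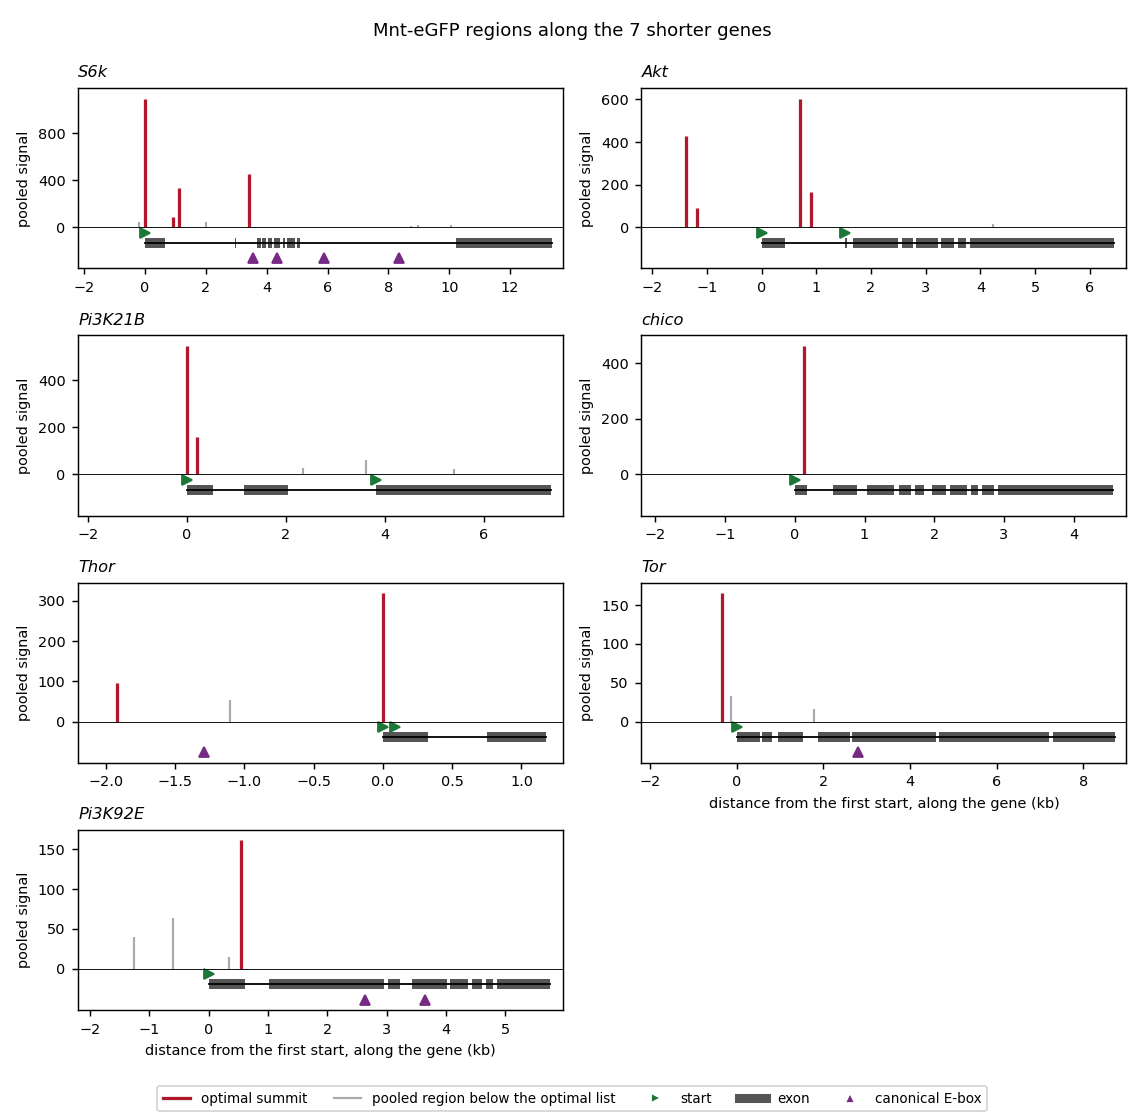
Pooled signal (y axis, deposited units, scaled separately for each gene) against distance from the first start (x axis, kb) for S6k, Akt, Pi3K21B, chico, Thor, Tor and Pi3K92E, with the same marks as for the longer genes. S6k (1094) and Pi3K21B (546) peak at the start, Akt (604) 0.692 kb inside the gene and Tor (166) 0.342 kb upstream.

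REPTOR, the transcription factor that Tor complex 1 inactivates, spans 25.5 kb of chromosome 3R (24557368 to 24582864, minus strand) and carried 11 optimal summits, the most of the 10 genes. The strongest lay 177 bp upstream of the internal start of transcript RC (24572672), with a signal of 527, 368 in replicate 1 (rank 380) and 160 in replicate 2 (rank 421). The internal start of RG had 170 at 162 bp downstream. The first start, of RB, RD and RE, had 257 at 2 bp upstream (180 in replicate 1 and 72.8 in replicate 2), and an intronic summit 711 bp downstream had 228.5. The remaining start, of RA and RF, which the annotation marks as canonical, had no pooled region within 500 bp, and the nearest optimal summit lay 1465 bp away. Of the 4 REPTOR starts, 3 were thus bound, the canonical one excepted.

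Downstream of its internal starts REPTOR had a further cluster of intronic summits, 14.1 to 16.9 kb from the first start. The strongest of these had a signal of 374, with 200 in replicate 1 (rank 1170) and 167 in replicate 2 (rank 383), and the next had 266 (187.5 and 83.7). The highest and the lowest ratio between the replicates over the 10 genes both came from REPTOR summits beside a stronger one. The one 413 bp upstream of RC, at 106, had 84.2 in replicate 1 and 10.4 in replicate 2, a ratio of 8.09. The one 205 bp from the summit of 374, at 107 in the pooled list, had 37.7 and 81.6, a ratio of 0.463.

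The 3 genes over 20 kb were among those with the most summits. Windows with at least as many were found for 31 protein-coding genes at the InR count, 44 at the foxo count and 20 at the REPTOR count. Of the 1013 protein-coding genes of at least 20 kb, 3.55% had 9 or more summits, and the median was 1. The limits of 20 kb and 9 summits were chosen after these counts were seen.

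Of the 45 summits, 2 had the canonical E-box CACGTG within 100 bp (4.44%, 95% exact interval 0.543 to 15.1%), against 8.64% of all optimal summits and 2.93% of windows shifted by 1000 bp to either side. The interval holds both of these shares. With 250 bp to each side the count was 5 of 45. The shares of all optimal summits and of shifted windows given here are for 100 bp, so this count has no comparison. The 10 windows contain 29 CACGTG sites in 7 of the genes, and the 2 printed above lie within 100 bp of an optimal summit (6.90%, exact interval 0.846 to 22.8%), near the 5.09% of the CACGTG sites in the windows of all protein-coding genes. The closest misses were in foxo, 104 bp from a summit of 86.8, and in REPTOR, 112 bp from a summit of 143. The windows of chico, Pi3K21B and Akt hold no CACGTG, and all 3 genes had a summit among the 500 strongest.

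The variant E-box CACGCG lay within 100 bp of 8 of the 45 summits (17.8%, interval 8 to 32.1%), against 10% of all optimal summits. For CATGTG the count was 10 of 45 (interval 11.2 to 37.1%), against 14.9%, and for CATGCG 6 of 45 (interval 5.05 to 26.8%), against 7.13%. Any of these 3 or CACGTG was present at 19 of 45 (42.2%, interval 27.7 to 57.8%), against 34.4% of all optimal summits. Each of these 4 intervals holds the share of all optimal summits. In windows shifted by 1000 bp the shares were 5.4% for CACGCG, 9.9% for CATGTG and 5.8% for CATGCG. The shifted shares of CACGCG and CATGTG lie below their intervals, and that of CATGCG lies within its interval. The shares of all optimal summits were also above those of the shifted windows. CAGCTG, the E-box of other dimers, was at 7 of 45 (interval 6.49 to 29.5%), against 14.4%, and GAGAG, the core of the GAGA element, at 16 of 45 (interval 21.9 to 51.2%), against 31.0%. None of the 45 had TATCGATA, the DNA replication-related element, found at 6.19% of all, or GGTCACAC, the core promoter element Motif 1, found at 5.44%. With 45 summits, a count of 0 has an exact upper limit of 7.87%, above both shares. Motifs were searched on both strands, and windows of summits closer than 200 bp share bases.

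The Foxo core GTAAACA was within 100 bp of 5 of the 45 summits, in 5 genes (11.1%, interval 3.71 to 24.1%), against 8.21% of all optimal summits and 4.55% of shifted windows. The following stretches, with the motif in capitals and read along the gene, show the sites at starts: the Foxo core in the 5′ UTRs of InR (transcript RD) and chico, and CACGCG at the first InR start and at the promoter shared by S6k and kri. They lie at chr3R:21590048-21590076, chr2L:10246933-10246961, chr3R:21619296-21619325 and chr3L:5810980-5811009, all on the minus strand.
InR RD: gttgttgctgcTGTTTACgccactgcatt
chico: gcggataactaGTAAACActgatttcgcg
InR RB: ctggcagtgtttCACGCGatttcgaaacgt
S6k: ttgtcctcctagCGCGTGcttggcttgcta
The core lies 31 bp downstream of the RD summit of InR, which had a signal of 185, and 7 bp upstream of the chico summit, which had 464. A match of letters is a description and does not show that Foxo binds there.

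Other genes of the pathway were bound at 20 of 36 (55.6%, exact interval 38.1 to 72.1%), counting summits within 500 bp of a TSS as above, against 38.1% of all protein-coding genes, which lies at the lower limit of that interval. The median signal of the strongest such summit was 143, against 171 over all bound protein-coding genes. For the 8 bound genes among the 10 it was 495.5. At 7 of the 20, a start of another gene also lay within 500 bp of the summit. These were dock, Pdk1, Rheb, raptor, Sin1, bmm and RpS6. The RpS6 summit lay 9 bp from the start of snoRNA:Or-aca2 and 119 bp from a start of RpS6. The ligand list, insulin-like peptides with their binding proteins and a relaxin-type receptor, had 2 of 11 bound (exact interval 2.28 to 51.8%, which holds 38.1%). These were Ilp6, a peptide of the fat body, at 216, and Ilp7 at 99.7. Ilp1, Ilp2, Ilp3, Ilp4 and Ilp5 were among the 9 without a summit anywhere in their windows.

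Of the adaptors and of the lipid and kinase steps, 7 of 9 were bound (interval 40.0 to 97.2%). The 38.1% of all protein-coding genes lies just below that interval, and within the intervals of the Tor and output lists given next. The highest were the adaptor dock (320), the glycogen synthase kinase gene sgg (287) and the phosphatase subunit gene wdb (286). Next came the Akt-activating kinase Pdk1 (277) and the adaptor Lnk (223), while the other lipid kinases Pi3K59F and Pi3K68D were not bound. Pi3K59F had no summit in its window, whereas Pi3K68D had 2 beyond 500 bp of its starts, the stronger at 91.9. Tor complexes and their inputs were bound at 6 of 8 (interval 34.9 to 96.8%): the small GTPase Rheb (230), raptor (129), Sin1 (125), melt (124) and rictor (106) were highest. Both genes of the complex that restrains Rheb, gig and Tsc1, were free of summits in their windows. Among outputs 5 of 8 were bound (interval 24.5 to 91.5%), led by srl, the fly PGC-1 gene (622), eIF4E1, the cap-binding protein that 4E-BP blocks (237), the lipase gene bmm (157), Kr-h1 (82.4), a transcription factor of the juvenile hormone response, and RpS6 (79.9), the substrate of S6k. The windows of Kr-h1 and RpS6 also held summits of 957 and 1191 beyond 500 bp of their starts. REPTOR-BP, the partner of REPTOR, Lip4 and tobi were not bound. The intervals of the 4 lists overlap, and no difference between the lists was tested.

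The limits of the choice cut through nearby values. The lowest of the 45 summits was in foxo (77.5, rank 7411) and the next in REPTOR (85.3, rank 6733). The strongest pooled region of these windows left out of the optimal list was at InR, with a signal of 75.1 (rank 7639). In all, 63 pooled regions of the windows lay below the optimal list, down to a signal of 14.2. Between 2 and 5 kb upstream lay 7 further optimal summits. Of these, the foxo summits 3279 bp (147) and 4322 bp (258) upstream lay 9060 and 8017 bp from the nearest start of another gene. The 4 at chico, Pi3K21B and S6k lay 21 to 106 bp from a neighbour's start. The strongest of the 7, 3857 bp upstream of REPTOR, had a signal of 308 (rank 1029) and lay 1068 bp from the start of mld.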

How the data were processed

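Mnt-eGFP ChIP-seq was done on 2 biological replicates of whole adult female flies. The deposited dm6 lists used were 1 per replicate, 1 pooled, and the optimal list, which an irreproducible discovery rate threshold drew from the other 3, per the deposited file listings. Each region has a signal of the authors' caller, a −log10 q-value (deposited, 4.22 at every optimal peak) and a summit. No source used here names the caller or the aligner. Read depth is unknown, and the control and dm3 lists were not analysed here. The signal alone ranked regions.

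Genes came from Ensembl release 115, sequences from RefSeq release 6 (dm6). Tor was matched as mTor by synonym, and 2 listed symbols (susi, Lobe) had no match. Intervals are exact binomial (Clopper-Pearson), cover counting of summits or genes only, and treat them as independent. The counters were tested on simulated summits. The members, gene lists and motif panel were chosen with earlier results of these data known. All 10 members are named. Of each wider list, up to 5 bound genes by signal and up to 5 unbound ones, alphabetically, are named. Replicate values are those of the nearest summit within 100 bp. Python 3.11.15, numpy 2.4.6, pandas 2.3.3, scipy 1.17.1 and matplotlib 3.10.9 were used.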

Additional observations from a re-analysis of the deposited data

How the results depend on the processing

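All 10 genes kept a summit in the window under each setting run: windows from 500 bp or 5 kb upstream, the stronger 50% of the optimal list, and each replicate's 7451 strongest regions. The number of summits was 29 in the stronger 50% of the list, and otherwise 37 (summits within 400 bp of a stronger one dropped) to 52 (5 kb upstream). With a single replicate it ranged from 42 to 46. Genes bound at a TSS numbered 8 with either replicate alone and in the stronger 50%. They numbered 7 within 250 bp, where Tor drops out, 7 on canonical transcripts, where REPTOR drops out, and 10 within 1000 bp. The 38.1% of all protein-coding genes holds for 500 bp, any TSS and the full optimal list. No such share is given for these other settings. Summits with CACGTG numbered 5 at 250 bp and 2 at 50 bp, without a share of all optimal summits at these widths. The wider lists gave 16 to 18 bound genes with a single replicate. Summits with a region in both replicates numbered 40 when 50% of the optimal region had to be covered. The region overlapping the Pi3K92E peak stood at percentile 89.8 of the pooled list but at 19.8 without replicate 1. With replicate 2 alone, this gene was kept through a region 1271 bp upstream, which the window alone assigns to it. For every other gene but Tor (83.4 to 91.5) the percentile was at least 96.7 in each list. No paired analysis was possible because there is 1 group.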

Other observations

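Away from the optimal list, 2 of the CACGTG sites at these genes lay wholly within 100 bp of the summit of a weaker pooled region only. In an InR intron the region 70 bp from the site had a signal of 68.8 (rank 8296), and in a REPTOR intron the region 38 bp away had 24.4 (rank 18926). For the other 25 of the 29 sites, no pooled summit lay that close with the whole site in its window. Among these 25 is a foxo site with its middle 98 bp from a pooled summit of 52.45 (rank 10609), not wholly within 100 bp.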
